A study of Ovis aries with 32 samples.

Results

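The subject is the set of nuclear genes for subunits of respiratory complex III, cytochrome c oxidase (complex IV) and ATP synthase in 4 tissues of sheep fed 2 diets. The set holds every row of the expression table whose gene name starts with UQCR, COX4, COX5, COX6, COX7, COX8 or ATP5, which gave 26 of 30722 rows. It has 6 complex III, 11 complex IV and 9 ATP synthase genes. Since 13350 rows carry no gene name, subunits on those rows are not analysed here. The animals were male Tan sheep, a fat-tailed breed, 3 months old at the start. CON sheep ate a basal pellet and SA sheep the same pellet with 1% succinic acid in the dry matter, for 60 days after 10 days of adaptation. Poly(A) RNA of the tissues labelled hypothalamus, pituitary gland, liver and tail fat was sequenced from 4 sheep per diet, which gives 32 libraries in 8 groups of 4. Both diets share the basal pellet, and the labels name no other treatment. Libraries are named here by tissue, diet and replicate number.

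Complex III takes electrons from ubiquinol and passes them to cytochrome c, complex IV passes them on to oxygen, and both move protons across the inner mitochondrial membrane. ATP synthase lets those protons back through its membrane ring, which turns a rotor inside the catalytic head and drives ATP formation. Succinate enters the same chain upstream, through complex II, which reduces ubiquinone. All 3 complexes are mosaics: a few core subunits, such as cytochrome b, COX1 and ATP6, are made from mitochondrial DNA, and the rest are nuclear, made in the cytosol and imported. Several complex IV subunits have a widespread form and a form typical of muscle, lung or testis.

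Values are TPM, a level per transcript length that sums to about the same total in every library. Mitochondrially encoded transcripts took up a large and unequal part of each library, which lowers every other TPM value. In liver their share was 20.2% to 27.9% on CON and 52.5% to 71.0% on SA, so there it cannot be told apart from diet. In tail fat it was 47.1%, 22.6%, 70.8% and 61.4% in CON 1 to 4, and 25.7%, 36.5%, 45.5% and 50.7% in SA 1 to 4. Pituitary SA 4 was at 68.8%, against 36.7% to 51.1% in the other pituitary libraries. A second scale is therefore used beside TPM for many of the results, called rTPM. It is TPM after mitochondrially encoded and ribosomal RNA are removed and the rest is rescaled to the total of a full TPM library. CCDC152 also split the libraries. In liver it was 0 TPM in every CON library and 168 to 842 TPM on SA. In tail fat it was 57.8 to 186 TPM except in CON 2 (0.12 TPM) and SA 1 (0.07 TPM). SELENOP ran opposite to CCDC152 in both tissues. No CON liver had less than 4282 TPM of SELENOP, and no SA liver had more than 773 TPM. Among tail fat libraries SELENOP was highest in CON 2 (972 TPM) and SA 1 (598 TPM), and the rest lay between 46.0 and 197 TPM. In liver this split coincides with diet, so its part cannot be told apart from that of diet. Liver and tail fat carried their own markers, all 8 listed hepatocyte genes and all 7 adipocyte genes having means over 1 TPM in both diets. The hepatocyte genes summed to 95417 to 109517 TPM in the CON and 7863 to 31497 TPM in the SA livers. The libraries labelled hypothalamus had striatal genes at 2211 to 3457 TPM in CON and listed hypothalamic hormone genes at only 8.27 to 10.4 TPM. Those labelled pituitary had listed anterior pituitary genes at 2.85 to 4.89 TPM in CON and neuronal genes at 2802 to 3500 TPM, so these labels are names of the libraries only. In bulk tissue, fewer cells of a type and less RNA per cell cannot be told apart.

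In tail fat the summed subunit transcripts of all 3 complexes stood higher on the SA diet in rTPM, while 5 of 24 single genes passed their test on that scale and 0 of 23 on the TPM scale. In rTPM, the 26 genes summed to 12495, 12657.5, 12270.5 and 11547 in CON 1 to 4 and to 19654, 16945, 18883 and 20388 in SA 1 to 4. The means were 12242.5 ± 490 and 18967.5 ± 1482 (SD, n = 4 each), a ratio of 1.55. No CON library reached any SA library. The ratio was 1.61 for complex III, 1.52 for complex IV and 1.57 for ATP synthase, and in each complex the CON and SA libraries did not overlap. On the TPM scale the sums were 6116, 9478, 3326 and 4203 in CON and 14315, 9829, 9711 and 8436 in SA, and CON 2 lay above SA 4. A sum is dominated by its most abundant genes and is given as a description.

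**Figure D1:**
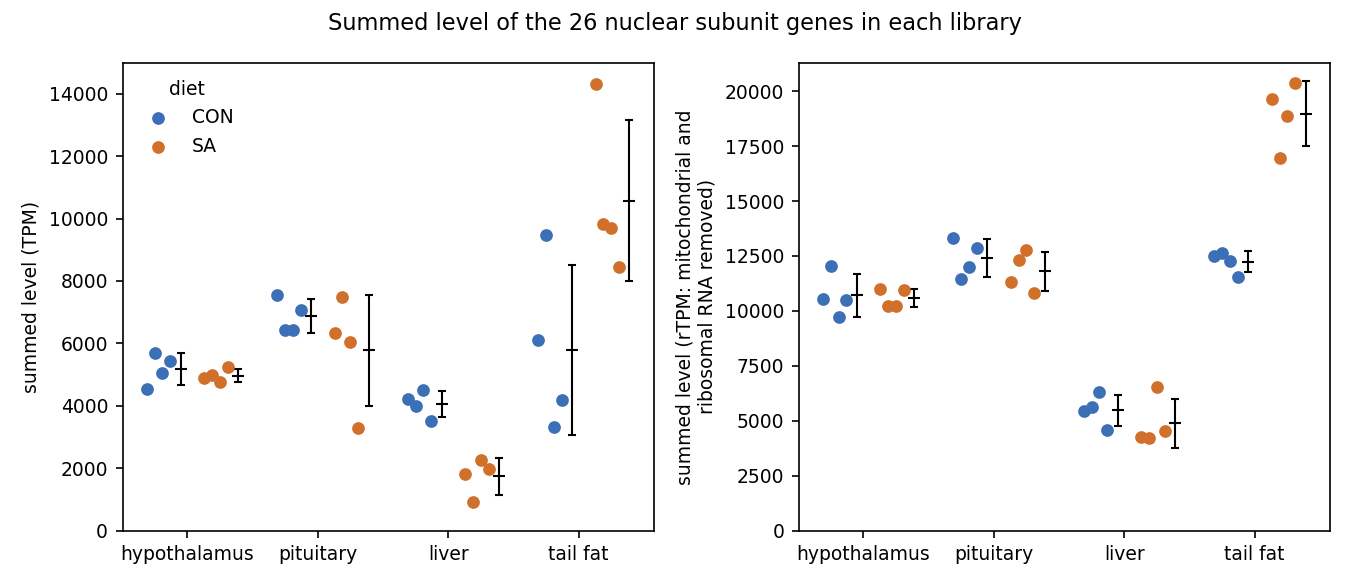
Summed level of the member genes in each library of the 4 tissues and both diets, as TPM and as rTPM; points are libraries and the bars beside them are the mean ± SD of 4. In liver the gap between CON (mean 4059 TPM) and SA (1744 TPM) closes on the second scale (5490 and 4889), while in tail fat the SA libraries lie above all CON libraries in rTPM (means 12242.5 and 18967.5) but not in TPM, where CON 2 (9478) is above SA 4 (8436).

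Gene by gene on the TPM scale, 0 of the 23 members tested in tail fat passed limma's moderated test at an adjusted p of 0.05, where 0.697% of all 11185 genes tested were called. At an unadjusted p under 0.05 there were 12. With the same 8 libraries weighted by their spread (array weights) 16 members rose, where 25.4% of all genes were called, 13.1% higher and 12.3% lower. In a fit over all 32 libraries 14 rose, where 18.5% were called, 7.79% higher and 10.7% lower. The SA mean was higher for 22 of 23, with a median log2 change of 0.93 against -0.06 over all genes. In 9 of the 23, all 4 SA libraries lay above all 4 CON libraries, which holds for 4.63% of all genes tested. With mitochondrial and ribosomal RNA removed, 5 of 24 members rose and none fell, where 10.8% of all genes were called, 1.37% higher and 9.43% lower. The 5 were UQCRFS1, UQCRC1, UQCR10, COX5A and COX8A, and the members' median log2 change was 0.59 against -0.39 over all genes. These 5 are also the members without overlap between diets on that scale, where 3.59% of all genes had all SA libraries higher. Leaving out 1 library left 1 of the calls (UQCRFS1) without CON 1, CON 3, CON 4 or SA 4, then 2, 3 and 4 without SA 3, SA 2 and SA 1, and gave 6 without CON 2. Of these 8 fits UQCRFS1 was called in 8, UQCRC1 and COX8A in 3 each, UQCR10 in 2 and COX5A in 1. On the TPM scale the count was 9 without CON 2. The members were tested where at least 4 libraries reached 1 TPM, or 1 rTPM on the second scale.

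Complex III held 3 of the 5. UQCRFS1, the Rieske iron-sulfur protein that takes the first electron from ubiquinol, was at 59.9, 90.6, 55.0 and 69.4 rTPM in CON 1 to 4 and 296, 184, 185 and 169 in SA 1 to 4. Every SA library was above every CON library, with SA 1 farthest up, and the mean was 3.03 times higher. On the log2 scale its rise was 1.58 ± 0.28 (SE; limma, adjusted p = 0.0133), and 1.88 ± 0.52 on the TPM scale, where the adjusted p of 0.113 did not pass. UQCRC1, a core protein on the matrix side of the complex, was at 83.4, 128, 93.5 and 84.7 in CON and 383, 182, 197 and 265 in SA. Again the diets did not overlap, and the rise was 1.35 ± 0.30 (limma, adjusted p = 0.0259). UQCR10, a small subunit next to cytochrome c1, was the most even of the 5 in CON, at 877, 778, 838 and 865 rTPM, against 1315, 1536, 1653 and 1880 in SA. Its rise was 0.92 ± 0.23 (limma, adjusted p = 0.0328).

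UQCRC2, the partner of UQCRC1 in the core, was not called. It was at 63.8, 202, 51.2 and 65.9 rTPM in CON and 225, 84.7, 89.8 and 75.4 in SA, so that CON 2 and SA 1 stood above the other 6 libraries whatever their diet. Its log2 change was 0.39 ± 0.48 (limma, adjusted p = 0.614). UQCRB, which binds near the ubiquinone site, was at 620 to 811 in CON and 607 to 826 in SA, and its change of 0.06 did not pass (limma, adjusted p = 0.876).

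In complex IV, COX8A and COX5A rose. COX8A, a small membrane subunit, was at 637, 629, 737 and 716 rTPM in CON and 1306, 1317, 1331 and 1379 in SA. The coefficient of variation of the 4 SA libraries was 2.41%, the lowest of any member there, and the SA mean was 1.96 times the CON mean. Its log2 change was 0.97 ± 0.21 (limma, adjusted p = 0.0244). COX5A, a matrix-side subunit, was at 241, 237, 266 and 225 in CON and 347, 456, 496 and 528 in SA, a rise of 0.90 ± 0.24 (limma, adjusted p = 0.0415). COX7C was at 924 to 2186 in CON and 1769 to 3949 in SA, and its 0.96 ± 0.33 did not pass (limma, adjusted p = 0.0830).

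COX4I1, the widespread form of subunit 4 and the most abundant member in tail fat CON, was close between diets: 2860, 1943, 2342 and 2296 rTPM in CON and 2201, 2587, 2721 and 2540 in SA. The change was 0.10 ± 0.23 and did not pass (limma, adjusted p = 0.795). COX4I2, the form of subunit 4 typical of lung and of pericytes, pointed the other way, at 11.7, 7.45, 33.9 and 26.6 in CON and 8.39, 9.24, 10.97 and 11.8 in SA. Its log2 change of -0.70 ± 0.44 did not pass (limma, adjusted p = 0.295). The 6 listed smooth muscle and pericyte genes, all with means over 1 TPM, summed to 74.6 to 185 TPM in CON and 41.4 to 126 TPM in SA. RGS5, a pericyte gene, was at 44.5, 82.8, 26.5 and 37.2 TPM in CON and 5.33, 15.0, 12.3 and 8.12 TPM in SA. The 5 others pointed the other way and overlapped, with sums of 65.8 ± 27.1 TPM in CON and 86.9 ± 39.3 TPM in SA (SD, n = 4 each). Their part in the COX4I2 values was not tested.

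Without weights or a block for replicate number, no ATP synthase subunit passed limma's test of the 8 tail fat libraries on either scale. With replicate number as a block, 1 of the 9 rose on the TPM scale, ATP5MC3. With array weights 8 of the 9 rose, all but ATP5PF, and 6 rose in the fit over all 32 libraries, both on the TPM scale. ATP5MC3, 1 of the genes for subunit c of the proton-driven ring, was at 90.6, 375, 102 and 111 rTPM in CON and 1207, 445, 352 and 229 in SA. CON 2 lay inside the SA range and SA 1 far above the other SA libraries, and the change was 1.70 ± 0.57 (limma, adjusted p = 0.0759). ATP5F1A, the alpha subunit of the catalytic head, gave the same picture, with 80.1, 201, 101 and 104 in CON and 430, 222, 203 and 183 in SA. ATP5IF1, the inhibitor that binds the head when the enzyme runs backwards, was at 449 to 780 in CON and 731 to 1116 in SA (0.62 ± 0.27; limma, adjusted p = 0.145). ATP5PF, coupling factor 6 of the peripheral stalk, had its lowest values in CON 2 (357) and SA 1 (366), against 581 to 700 in the other CON and 682 to 850 in the other SA libraries.

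**Figure D2:**
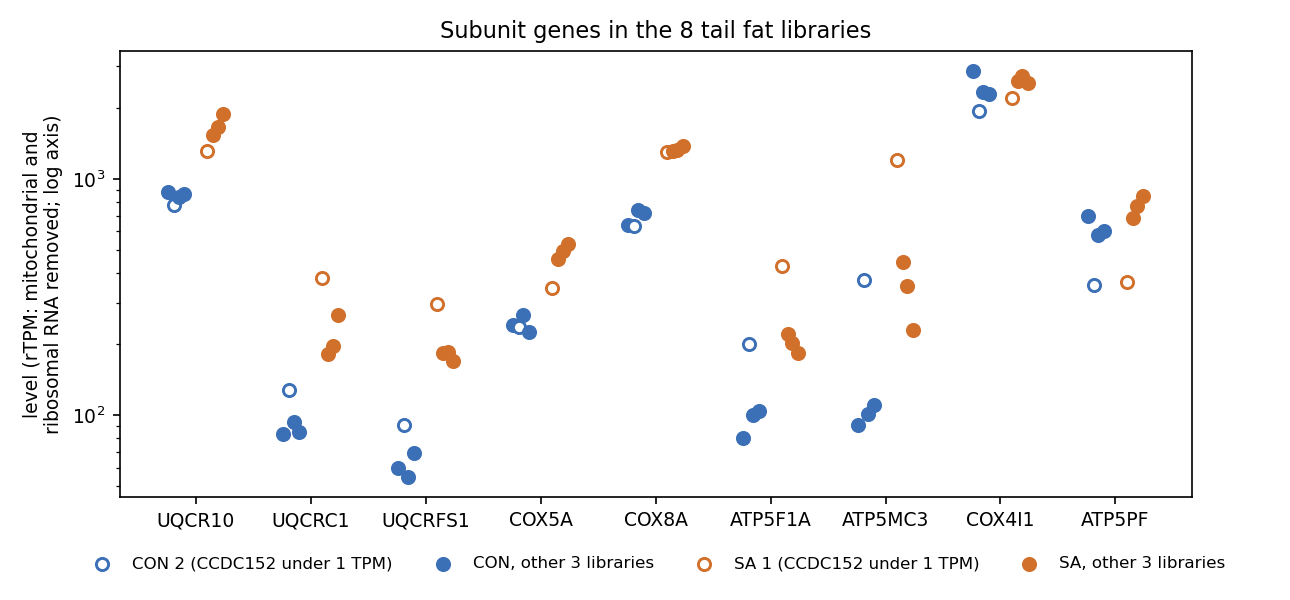
Level of member genes in the 8 tail fat libraries in rTPM, on a log axis, with CON 2 and SA 1 (CCDC152 near 0) marked apart from the 6 other libraries. COX8A and UQCR10 separate by diet in all 8 libraries, while ATP5MC3 and ATP5F1A are highest of their diet in CON 2 and SA 1 (375 and 1207 rTPM for ATP5MC3).

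The same comparison was made with the 3 CON and 3 SA libraries in which CCDC152 exceeded 10 TPM, a choice made after the data were seen. On the TPM scale 10 of 23 members then rose, where 3.36% of all genes were called, 2.21% higher and 1.15% lower. Added to UQCRFS1, UQCRC1, UQCR10, COX5A and COX8A were COX7A2L, COX7C, ATP5F1A, ATP5F1B and ATP5MC3. ATP5MC3 led with 2.13 ± 0.42 (limma, adjusted p = 0.00137), from 44.4, 27.6 and 40.2 TPM in CON to 258, 181 and 94.8 TPM in SA, without overlap. With mitochondrial and ribosomal RNA removed as well, 7 of 24 rose, where 3.71% of all genes were called, 0.799% higher and 2.91% lower: UQCRFS1, UQCRC1, UQCR10, COX5A, COX8A, ATP5F1A and ATP5MC3. Adipocyte markers summed to 11102 to 74740 TPM in the 4 CON and 10847 to 60285 TPM in the 4 SA libraries. UCP1, which defines brown fat, was at most 2.45 TPM in CON and 4.80 TPM in SA, and DIO2 at most 0.02 TPM. Of the 6 listed brown fat genes, 1 had a mean of at least 1 TPM in CON and 3 in SA. All 6 summed to 65.8 to 264 TPM in CON and 116 to 183 TPM in SA, so few genes carried these sums. Of the 5 skeletal muscle genes found, the sums were 7.27 to 126 TPM in CON and 2.44 to 63.4 TPM in SA, highest in CON 2 and SA 1. Their part in the subunit values was not tested.

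Partners and builders of the complexes were followed in a list of 53 genes, of which 41 were found: cytochrome c, assembly factors, copper chaperones and regulators of mitochondrial gene expression. In tail fat 0 of 39 passed on the TPM scale. BCS1L, the chaperone that inserts the Rieske protein UQCRFS1 into complex III, had the smallest p, with a log2 change of 1.62 ± 0.44 (limma, adjusted p = 0.0979). COX17, which hands copper to complex IV, changed by 1.26 ± 0.40 (limma, adjusted p = 0.169). CYC1, the cytochrome c1 subunit of complex III, changed by 1.16, and ATPAF2, an assembly factor of the ATP synthase head, by 1.25. Neither passed (limma, adjusted p = 0.234 and 0.236). With mitochondrial and ribosomal RNA removed, BCS1L rose (1.35 ± 0.34; limma, adjusted p = 0.0345), and GABPB1, a subunit of a transcription factor of nuclear respiratory genes, fell by 1.28 (limma, adjusted p = 0.0344).

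In liver most subunits were lower in SA on the TPM scale, as were most genes. Of 22 members tested, 16 fell and 1 rose, where 64.3% of all 11582 genes were called, 59.1% lower and 5.21% higher. The members' median log2 change was -1.43 against -0.83 over all genes. The summed level was 3527 to 4516 TPM in CON (4059 ± 417, SD, n = 4) and 908 to 2275 TPM in SA (1744 ± 588), without overlap. All 4 SA libraries lay below all 4 CON libraries for 17 of the 22 members, as for 54.2% of all genes, and above them for UQCRH, as for 4.07% of all genes. Once mitochondrial and ribosomal RNA were removed the sums overlapped, at 4583 to 6298 and 4212 to 6548 rTPM, and the ratio of means was 0.89. On that scale 4 of 22 members fell and 4 rose, where 28.4% of all genes were called, 12.6% lower and 15.9% higher. There 5 members had all SA libraries lower and 4 all higher, against 14.0% and 17.4% of all genes.

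Among complex III genes in liver, UQCRC2 had the largest fall. It was at 88.8, 72.0, 86.7 and 67.5 TPM in CON and 15.7, 14.6, 16.6 and 15.7 TPM in SA, with no overlap and an SA standard deviation of 0.82 TPM. The fall was 2.25 ± 0.20 on the TPM scale (-2.25; limma, adjusted p = 4.56e-05) and -1.20 ± 0.25 without mitochondrial and ribosomal RNA (limma, adjusted p = 0.00602). Its core partner UQCRC1 changed by -1.48 and UQCRFS1 by -1.49 on the TPM scale, and by -0.43 and -0.46 on the second scale, where neither passed. UQCRB changed by -1.28 on the TPM scale. UQCR10 fell on the TPM scale (-0.93; limma, adjusted p = 0.0348), a call that held in 3 of 8 fits with a library left out, and was at 0.16 on the second, so its direction turned with the scaling.

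The 1 member that rose on the TPM scale was UQCRH, the acidic hinge protein between cytochrome c1 and cytochrome c. Its row was at 0, 0.80, 0.28 and 1.19 TPM in CON and 2.02, 2.82, 2.29 and 3.28 TPM in SA (1.25 ± 0.25; limma, adjusted p = 0.00178). These levels are far under those of the other complex III genes, and the row never passed 3.28 TPM in any of the 32 libraries. In the RefSeq annotation UQCRH overlaps LRRC41, and whether reads were assigned by strand is not given in the sources used here.

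ATP synthase showed both the largest falls and a rise in liver. ATP5MC3 was at 272, 223, 296 and 274 TPM in CON and 21.8, 24.5, 34.5 and 34.96 TPM in SA. Its change was -3.18 ± 0.26 (limma, adjusted p = 3.43e-05), and -2.10 ± 0.26 on the second scale (limma, adjusted p = 0.000652). ATP5F1B, the catalytic beta subunit of the head, was at 413, 279, 322 and 378 TPM in CON and 40.0, 32.2, 64.5 and 39.9 TPM in SA. It changed by -2.98 ± 0.29, and by -1.89 ± 0.27 on the second scale (limma, adjusted p = 0.00103). The alpha subunit ATP5F1A fell by 1.75 ± 0.22 on the TPM scale and by 0.67 ± 0.22 on the second (limma, adjusted p = 0.0447), the latter a call that held in 1 of 8 fits with a library left out. ATP5IF1 changed by -1.90, ATP5PO of the stalk by -1.65, ATP5F1C, the gamma subunit that turns in the head, by -1.38, and ATP5PD of the stalk by -1.13 on the TPM scale. All 4 passed there, ATP5PD not without CON 2 or without CON 3, and none on the second scale.

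ATP5PF went the other way. It was at 115, 153, 171 and 128 TPM in CON and 272, 149, 239 and 217 TPM in SA, which did not pass (0.61; limma, adjusted p = 0.0847). In rTPM it was at 149, 216, 239 and 167 in CON and 632, 693, 688 and 502 in SA, without overlap, and rose by 1.71 ± 0.22 (limma, adjusted p = 0.000771). ATP5F1D, the delta subunit of the rotor, was at -0.44 and 0.65 on the 2 scales and passed on neither. In the RefSeq annotation ATP5PF overlaps GABPA, and ATP5MC3, ATP5F1B and ATP5F1C each overlap at least 1 unnamed gene.

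Complex IV genes in liver also moved in both directions. On the TPM scale COX7C fell by 2.16 ± 0.46, COX7A2L by 1.72 ± 0.28, COX5A by 1.70 ± 0.32 and COX8A by 1.16 ± 0.34 (limma, adjusted p = 0.00255, 0.000557, 0.00131 and 0.0139). COX7A2L is a subunit 7 relative that takes part in joining complexes III and IV. None of these 4 passed on the second scale, where COX8A was level, at 103 to 158 rTPM in CON and 90.5 to 148 in SA. COX6B1, which lies on the outer face near the cytochrome c site, was at 292 to 398 rTPM in CON and 406 to 875 in SA and rose on that scale (0.78 ± 0.25; limma, adjusted p = 0.0410), a call that held in 1 of 8 fits with a library left out. On the TPM scale it was at -0.32 and did not pass (limma, adjusted p = 0.496). COX7A1, the muscle form of subunit 7A, was at 3.34, 2.87, 10.1 and 2.42 in CON and 11.7, 14.3, 17.8 and 11.5 in SA, a rise of 1.54 ± 0.37 (limma, adjusted p = 0.0129). COX4I1 passed on neither scale (-0.81 and 0.30).

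**Figure D3:**
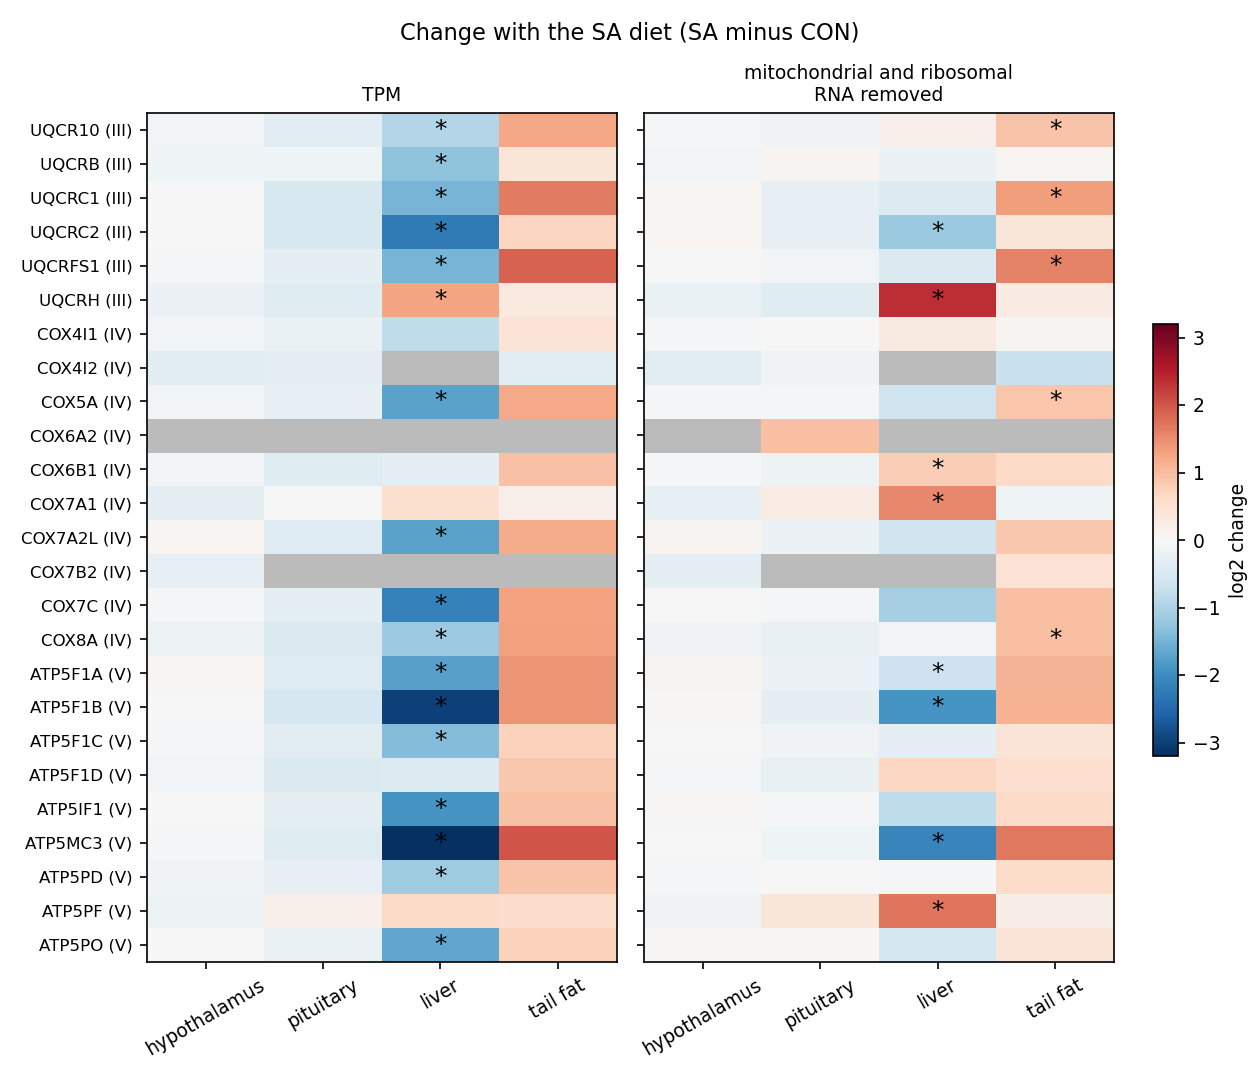
Colour map of the log2 change (SA minus CON) of the members by gene (rows, with complex; V is ATP synthase) and tissue (columns), on the TPM scale at left and in rTPM at right; stars mark an adjusted p under 0.05 and grey marks genes not tested. Stars stand only in liver at left, from ATP5MC3 (-3.18) to UQCRH (1.25), and in liver and tail fat at right, where UQCRFS1 (1.58) is the highest starred tail fat gene.

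Of the 40 partner genes tested in liver, 23 fell and 2 rose on the TPM scale, against 59.1% and 5.21% of all genes, and 5 fell and 7 rose on the second, against 12.6% and 15.9%. These shares are near those of all genes. LRPPRC, which stabilises mitochondrial messenger RNA, fell by 1.97 ± 0.17 (limma, adjusted p = 3.54e-05), and NDUFA4, a subunit found with complex IV, by 2.13 ± 0.24 (limma, adjusted p = 0.000104). TFB1M, a methyltransferase of mitochondrial ribosomal RNA, and COX15, a heme A synthesis enzyme, fell by 1.51 and 1.54. On the second scale PET100, a complex IV assembly factor, rose by 2.03 ± 0.19, SCO2, a copper chaperone of complex IV, by 2.10 ± 0.35, and COX17 by 1.45 ± 0.27 (limma, adjusted p = 0.000174, 0.00232 and 0.00345).

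The order of the members by their liver change recurred in large part, with the sign turned, inside tail fat. For the 21 members with a mean of at least 10 TPM over the 32 libraries, tail fat CON 2 minus the mean of the 3 other CON libraries was set against the liver SA minus CON difference, both as log2(rTPM + 1). Pearson's r was -0.86 and Spearman's rho -0.83, and 17 of the 21 had opposite signs. UQCRH, tested in both tissues but under that mean, was at -0.39 in tail fat CON 2 and 2.36 in liver. With it the 22 members gave r = -0.80 and rho = -0.82, and 18 of 22 had opposite signs. ATP5MC3 was at 1.89 in tail fat CON 2 and -2.10 in liver, UQCRC2 at 1.74 and -1.20, ATP5F1B at 1.48 and -1.89. ATP5PF was at -0.81 and 1.71, and COX7A1 at -1.92 and 1.54. The exceptions among the 21 were ATP5IF1 (-0.67 and -0.81), COX5A (-0.04 and -0.63), COX8A and ATP5PD, negative in both. Tail fat SA 1 minus the 3 other SA libraries gave nearly the order of CON 2, with r = 0.95 and rho = 0.92 over the same members, although SA 1 is of the other diet. Over the 21 members, the SA minus CON change in tail fat without CON 2 and SA 1 also went with these differences. Its r was 0.63 with CON 2, 0.66 with SA 1 and -0.64 with liver. These correlations run across genes, which are not independent replicates, and the values within a tissue share libraries. No such correlation over all genes is given here, so whether the order is particular to these subunits was not tested. CON 2 and SA 1 are the tail fat libraries with CCDC152 near 0 and the lowest mitochondrial shares, and the liver groups differ in both measures. The part of either in this order was not tested.

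**Figure D4:**
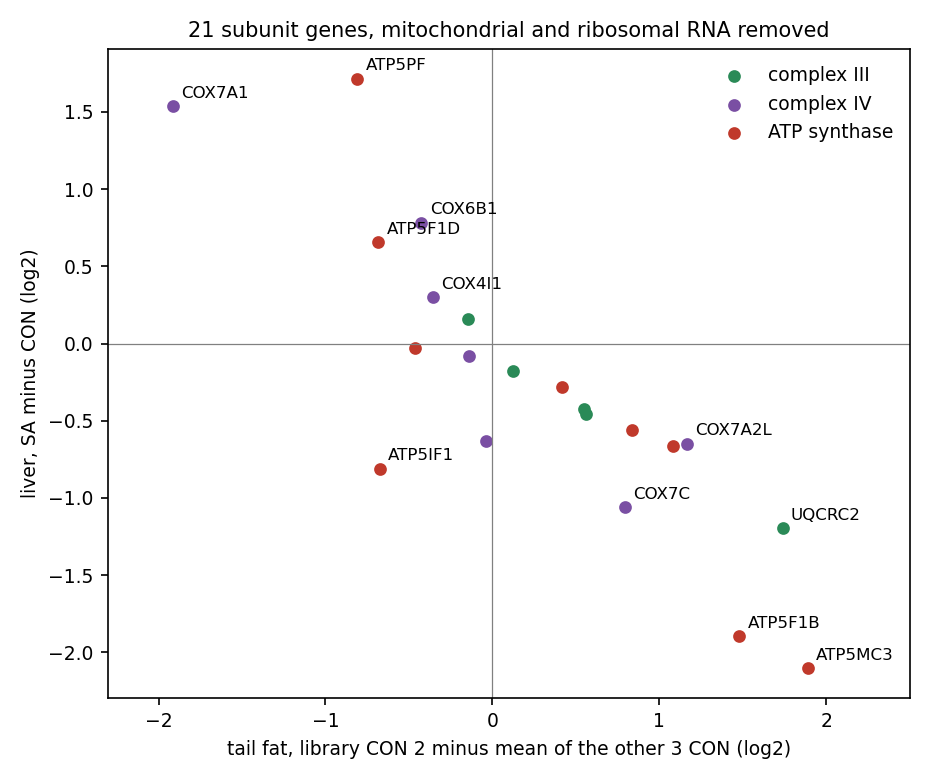
For the 21 member genes with a mean of at least 10 TPM (points, coloured by complex), the log2 difference of tail fat CON 2 from the mean of the other 3 CON libraries (x axis) against the log2 SA minus CON difference in liver (y axis), both in rTPM. ATP5MC3 is highest in tail fat CON 2 (1.89) and lowest in liver SA (-2.10), and COX7A1 and ATP5PF lie at the other end. ATP5IF1 is an exception, low in both (-0.67 and -0.81).

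In the libraries labelled hypothalamus no diet difference was called. Of 24 members, 0 passed limma's test, and 0 had an unadjusted p under 0.05, while 0% of all 14126 genes were called and 493 had an unadjusted p under 0.05. Changes ran from -0.37 to 0.06 log2. On the TPM scale ATP5PF was the only member whose diets did not overlap, at 156, 192, 156 and 164 TPM in CON and 148, 143, 150 and 155 TPM in SA (-0.16 ± 0.09, limma, adjusted p = 0.947). Among all genes, 0.496% had all SA libraries lower. In rTPM the diets overlapped for ATP5PF too, at 300 to 406 in CON and 292 to 333 in SA. COX7A1 had 10.8, 12.9, 21.03 and 16.8 TPM in CON and 12.3, 13.1, 11.2 and 11.4 TPM in SA, and UQCRB 225 to 308 TPM in CON and 206 to 263 TPM in SA. These were the members with the smallest p in their complexes, and neither passed. The summed level was 4531 to 5690 TPM in CON and 4763 to 5252 TPM in SA.

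In the libraries labelled pituitary, 0 of 23 members passed and 0 had an unadjusted p under 0.05, where 0% of 14472 genes were called and 218 had an unadjusted p under 0.05. Changes ran from -0.54 to 0.15 log2, against -0.27 for the median gene. The lowest member was ATP5F1B, at 670, 656, 691 and 783 TPM in CON and 616, 848, 511 and 201 TPM in SA (-0.54 ± 0.37; limma, adjusted p = 0.747). SA 1, SA 3 and SA 4 were below the CON range, SA 4 farthest. Its summed member level was 3288 TPM, where SA 1 to 3 had 6038 to 7482 TPM. Without mitochondrial and ribosomal RNA, all pituitary SA libraries summed to 10830 to 12764 rTPM, against 11441 to 13331 in CON. COX6B1, with 506 to 575 TPM in CON and 251 to 535 TPM in SA, and UQCRH, at 0.90 to 1.61 and 0.31 to 1.77 TPM, had the smallest p of their complexes. In rTPM COX6B1 was at 943 to 1014 in CON and 826 to 912 in SA, without overlap but not called. All SA libraries were lower for 0.988% of all genes on that scale. In both of these tissues 0 of 41 partner genes passed.

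The diet difference itself differed between tissues for 19 of 24 members in an F-test of the diet by tissue interaction, where 27.0% of all 16360 genes were called. The strongest were ATP5MC3, ATP5IF1, UQCRFS1, COX5A and ATP5F1B (limma, adjusted p = 4.35e-05, 5.11e-05, 8.83e-05, 0.000123 and 0.000249). ATP5MC3, for example, changed by -3.18 in liver and by 2.01 in tail fat, the latter not past its own test, and by -0.05 in hypothalamus. COX4I1, COX4I2, COX7A1, COX7B2 and ATP5PF did not pass. With mitochondrial and ribosomal RNA removed 18 of 25 passed, where 31.2% of all genes were called. These fits had no term for the sheep, which libraries of different tissues can share.

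On the CON diet, 16 of 24 members differed between the 4 tissues in an F-test on the TPM scale, against 87.3% of all 15929 genes. In rTPM 22 of 24 did, and the share of all genes on that scale is not given here. The widest range belonged to COX4I2, whose means were 4.64 ± 2.97 TPM in hypothalamus, 4.13 ± 0.63 in pituitary, 0.27 ± 0.13 in liver and 7.55 ± 2.20 in tail fat (SD, n = 4). Tail fat was higher than liver by 2.72 ± 0.31 log2 (limma, adjusted p = 1.40e-06) and higher than hypothalamus by 0.74 ± 0.31 (limma, adjusted p = 0.0471). COX7A1 ran from 24.3 TPM in pituitary and 15.4 in hypothalamus to 7.40 in tail fat and 3.44 in liver. COX8A was at 331 TPM in pituitary, 311 in tail fat and 257 in hypothalamus, neighbours within their spread, and at 92.1 in liver. UQCR10 stood out in tail fat, at 389 ± 154 TPM against 147 in pituitary, 122 in liver and 112 in hypothalamus. It was higher in tail fat than in hypothalamus by 1.70 ± 0.26 and than in liver by 1.58 ± 0.26 (limma, adjusted p = 1.48e-05 and 6.66e-05).

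Tail fat on the CON diet differed from hypothalamus and from liver in both directions. Against hypothalamus, 3 of 24 members were higher (UQCR10, COX4I2, COX6B1) and 8 lower. Of all genes 67.4% were called, 14.3% higher and 53.2% lower. The 8 were ATP5MC3 (-1.93), ATP5F1B (-1.85), COX7A2L (-1.85), ATP5F1A (-1.80), UQCRC2 (-1.61), COX7B2 (-1.17), COX7A1 (-0.98) and UQCRC1 (-0.93). Against liver, 9 members were higher and 3 lower, where 44.1% of all genes were called, 20.8% higher and 23.3% lower. The 3 lower were again ATP5MC3, ATP5F1B and ATP5F1A (-2.09, -1.44 and -0.94), and the 9 higher were COX4I2, COX8A, UQCR10, COX6B1, COX4I1, COX7A1, ATP5PF, ATP5IF1 and ATP5PD. In tail fat CON 2 the 3 lower genes were at 281, 469 and 151 TPM, above the liver CON means of 266, 348 and 96.9 TPM. The other tail fat CON libraries were at 27.6 to 44.4, 59.8 to 96.9 and 27.3 to 39.2 TPM. The part of this split among tail fat libraries in the tissue differences was not tested. In rTPM, tail fat against hypothalamus had 7 of 24 members higher and 7 lower, and tail fat against liver 16 higher and 2 lower. The shares of all genes for these comparisons in rTPM are not given here. Liver was lower than hypothalamus for 9 members and higher for none, where 68.2% of all genes were called, 51.5% lower. With mitochondrial and ribosomal RNA removed that became 21 of 24, where 79.0% of all genes were called, 66.0% lower. Pituitary and hypothalamus differed in 1 member, COX7B2, lower in pituitary by 0.92 log2 (13.1% of all genes called, 4.48% lower).

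The most abundant members, on this per-length scale and averaged over the 4 CON tissues, were COX4I1 (793 TPM), COX7C (782), COX6B1 (437), ATP5F1B (422), ATP5PD (390), ATP5PO (314) and UQCRB (297). COX7C was nearly level across tissues, from 741 TPM in liver to 870 in pituitary. Among the 20 or 21 members with a group mean of at least 10 TPM it was also the least even within groups, with a coefficient of variation of 26.6% to 30.2% in the CON groups of hypothalamus, pituitary and liver, where the median member stood at 9.54%, 8.39% and 14.3%. UQCRFS1 was nearly level as well, from 26.9 TPM in hypothalamus to 34.3 in tail fat. In tail fat CON the median coefficient of variation of the members fell from 56.3% on the TPM scale to 22.8% with mitochondrial and ribosomal RNA removed.

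**Figure D5:**
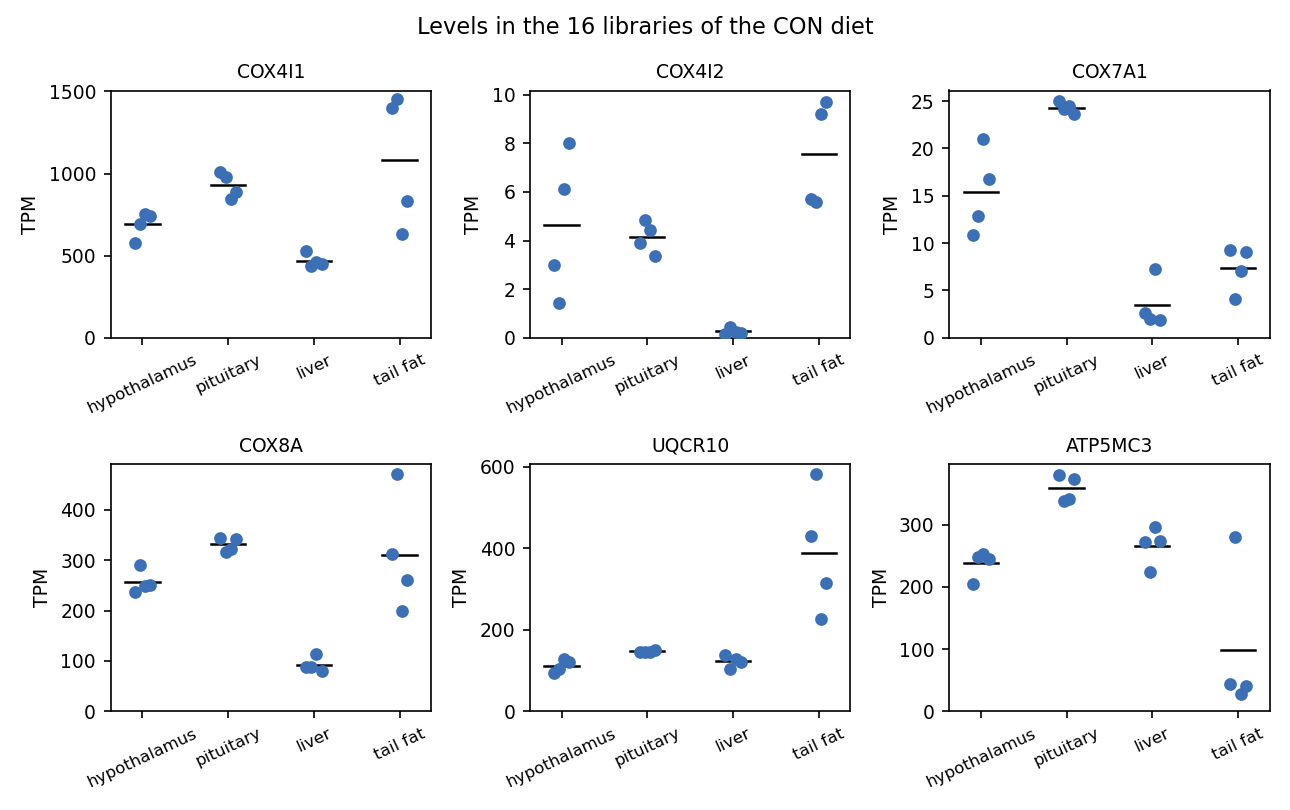
TPM (linear axes) of COX4I1, COX4I2, COX7A1, COX8A, UQCR10 and ATP5MC3 in the 4 CON libraries of each tissue; points are libraries and lines are means. UQCR10 is highest in tail fat (mean 389 TPM) and COX4I2 is lowest in liver (0.27 TPM), while ATP5MC3 in tail fat is low in 3 libraries and 281 TPM in CON 2.

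Apart from COX7A1, the muscle and testis forms of complex IV subunits were read at low levels. COX6A2, the heart and skeletal muscle form of subunit 6A, was at 0 in all liver libraries and in 6 of 8 tail fat libraries, the exceptions being CON 2 (3.75 TPM) and SA 1 (1.70 TPM). The same libraries held most of the skeletal muscle transcript ACTA1 in tail fat, at 38.1 TPM in CON 2 and 16.5 TPM in SA 1 against at most 1.44 TPM in the other 6. CKM was at 37.2 and 11.8 TPM there and at most 0.13 TPM elsewhere in tail fat. COX7A1, the muscle form of subunit 7A, went the other way, at 5.42 rTPM in CON 2 and 5.88 in SA 1. It was at 19.0 to 26.2 rTPM in the other tail fat CON and 19.5 to 20.6 in the other SA libraries. COX6A2 was also read in pituitary, at up to 2.86 TPM in CON and 0.81 to 2.58 TPM in SA, where ACTA1 was at most 0.51 TPM. COX6B2, the testis form of subunit 6B, stayed under 1 TPM in all 32 libraries, and in tail fat it was listed at 0 in all 4 CON and at 0.41, 0.82, 0.86 and 0.66 TPM in SA. COX7B2, another testis form, was at 1.42 to 2.64 TPM in hypothalamus CON and at most 1.21 TPM in any library of the other tissues on CON.

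Ratios within a library do not depend on how that library was scaled. Of 15 planned pairs, 7 had both genes named in the table, which gave 23 comparisons of CON and SA. None passed after adjustment over the 23, and an exact two-sided permutation test of 4 against 4 cannot go below p = 0.0286. That smallest value was reached 3 times, all in liver and all for a nuclear over a mitochondrially encoded subunit (adjusted p = 0.219 by the exact permutation test). The log2 ratio of ATP5F1A to ATP6 was -7.98 to -6.94 in CON and -11.37 to -10.97 in SA. UQCRC2 to CYTB was at -7.71 to -6.83 and -11.41 to -10.60, and COX4I1 to COX1 at -6.70 to -5.95 and -10.35 to -8.09, each without overlap. In tail fat the same ratios overlapped between diets. The core pair UQCRC2 to UQCRC1 differed by -0.78 in liver and -0.97 in tail fat (exact permutation p = 0.0571 for each, adjusted p = 0.263). ATP5IF1 to ATP5F1A, inhibitor over alpha subunit, had a CON mean of 2.48 ± 0.89 (SD, n = 4) in tail fat, with CON 2 at 1.16, against 0.86 in liver and 0.45 in hypothalamus and in pituitary.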

How the data were processed

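The authors deposited 1 table of TPM per gene, rounded to 2 decimals, whose library columns sum to 936939 to 987320. The tools named per the submitters' processing notes are HISAT2, RSEM and fastp. Versions, genome build and annotation: not given in the sources used here. TPM keeps no read depth, so depth is unknown. The 8 columns of the authors' group means were not used.

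Values were taken as log2(TPM + 1) and tested with limma 3.58.1 in R 4.3.3 (trend and robust empirical Bayes, two-sided). Each tissue was fitted alone on genes that reached 1 TPM in 4 or more of its 8 libraries, with Benjamini-Hochberg adjustment over all genes tested and a threshold of 0.05. The pseudocount understates changes of low genes. Tissues were compared over the 16 CON libraries and the diet by tissue interaction over all 32. With 4 sheep per diet, libraries of different tissues can come from the same animal. The labels do not say which do, so both fits treated all libraries as independent. The second scale drops mitochondrially encoded genes and ribosomal RNA and rescales each library to one total (rTPM). Ratios used TPM + 0.1. The fits were tested on simulated data.

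The members and the gene lists were chosen with earlier results of these data known. Genes were named by rule: the pairs for ratios, up to 4 members per complex and direction past the threshold or otherwise the smallest p, the most abundant and most variable members on CON, those under 1 TPM throughout, and up to 4 partner genes per tissue by smallest p; other members and the marker genes named were chosen after their values were seen. Labels state separate sheep within a group, and p-values measure the spread between these samples. Gene overlaps come from RefSeq assembly ARS-UI_Ramb_v3.0, in which 11 of 26 members matched by symbol and 5 overlapped another gene.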

Additional observations from a re-analysis of the deposited data

Results flagged for a closer look

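Of 207 groups of 4 libraries examined for a value far from the other 3, 17 held one, and chance alone flags about 1 in 20 groups. In tail fat CON the distant library was CON 2 each time and always the highest: ATP5F1A at 150.67 TPM (others 27.3 to 39.2), ATP5F1B at 469 (59.8 to 96.9), ATP5MC3 at 280.97 (27.6 to 44.4), COX7A2L at 145.73 (25.9 to 40.2) and UQCRC2 at 151.51 (13.9 to 31.2). In tail fat SA it was SA 1, again the highest: ATP5F1B at 1203.61 TPM (others 144 to 305), COX7A2L at 199.33 (82.5 to 91.5), UQCRC1 at 278.65 (101 to 110) and UQCRC2 at 163.62 (31.2 to 49.1). CON 2 and SA 1 have the lowest mitochondrial shares in tail fat, 22.6% and 25.7%.

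Pituitary SA 4 was the lowest of its group for the complex IV sum, 1454 TPM (others 2753 to 3009), and for ATP5PF, 206.49 TPM (272 to 276). Pituitary CON 1 was highest for ATP5PO at 450.6 TPM (358 to 367). In hypothalamus CON, ATP5F1A was highest in CON 2 at 198.84 TPM (169 to 170), and CON 1 was lowest for COX5A at 79.7 TPM (104 to 107) and for UQCRC1 at 69.49 TPM (84.0 to 86.2). In liver, COX7A1 was highest in CON 3 at 7.27 TPM (1.86 to 2.58) and COX8A lowest in SA 2 at 19.51 TPM (48.5 to 53.2). The diet difference itself differed between tissues for 19 members by the interaction test.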

How the results depend on the processing

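TPM keep no counts, so what depth limits cannot be given. Quantile normalization, array weights, a pseudocount of 0.1, a filter at 5 TPM or none, all 32 libraries in one fit, the replicate block and each library left out were planned; the restriction by CCDC152 and the fits that combine it or a left-out library with removal of mitochondrial and ribosomal RNA were chosen after seeing the data. Where no share of all genes stands beside a count in this section, the count alone does not say whether members moved more than other genes. In hypothalamus and pituitary the count of members called was 0 under all of them. In liver the count of 17 (64.3% of all genes called) became 10 with quantile normalization and 8 with mitochondrial and ribosomal RNA removed (28.4%). It was 15 to 18 with 1 library left out (6 to 10 on the second scale). The liver members' median minus that of all genes, -0.60, became -0.31 with quantile normalization and -1.06 without a filter. The liver sums changed by -1.33, -1.22, -1.36 and -1.29 log2 for complex III, complex IV, ATP synthase and all members, and by -0.22, -0.11, -0.25 and -0.18 with mitochondrial and ribosomal RNA removed.

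In tail fat the count of 0 became 3 with quantile normalization, 5 with mitochondrial and ribosomal RNA removed, 16 with array weights (25.4% of all genes called), 14 with all 32 libraries in one fit (18.5%), 10 in the 3 CON and 3 SA libraries with CCDC152 over 10 TPM, and 7 with both. It was 0 to 9 with 1 library left out and 1 to 6 on the second scale. The median minus that of all genes, 0.99, became 0.57 with quantile normalization and 0.79 with a filter at 5 TPM. Same-numbered sheep are not stated to be paired, and the correlations of their deviations ran from -0.33 to 0.36. The replicate block gave 3 members in tail fat, 17 in liver and 17 for the interaction (main 19).

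For tissues on CON, liver against hypothalamus (9) became 16 with quantile normalization, 21 with mitochondrial and ribosomal RNA removed and 16 with array weights. The F-test over tissues (16) became 22 with mitochondrial and ribosomal RNA removed. Tail fat against hypothalamus (11) became 17 with quantile normalization and 14 with mitochondrial and ribosomal RNA removed. Tail fat against liver (12) became 18 with mitochondrial and ribosomal RNA removed and was 7 to 15 with 1 library left out. Pituitary against hypothalamus (1) became 4 with quantile normalization, 0 with a pseudocount of 0.1, 0 with a filter at 5 TPM and 12 with array weights, and 0 to 6 with 1 library left out. Liver against hypothalamus was 6 to 13, and the interaction 16 to 20, with 1 library left out.

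Among the liver and tail fat members, these directions reversed. In liver, with quantile normalization and with mitochondrial and ribosomal RNA removed, UQCR10 (-0.93) was at 0.15 and 0.16, COX4I1 (-0.81) at 0.10 and 0.30, ATP5F1D (-0.44) at 0.60 and 0.65, and COX6B1 (-0.32) at 0.67 and 0.78. With 1 library left out liver COX6B1 ran from -0.51 to 0.082, and on the second scale ATP5PD from -0.21 to 0.11 and COX8A from -0.19 to 0.043. Tail fat UQCRB (0.39) was at -0.095 with quantile normalization. Tail fat COX7A1 (0.17) was at -0.13 with mitochondrial and ribosomal RNA removed and -0.21 in the 6 libraries with CCDC152 over 10 TPM on that scale. With 1 library left out it ran from -0.056 to 0.43, and from -0.61 to 0.27 on the second scale. The cause was not tested for any of these. Of the alternatives for single members and ratios, 1187 kept direction and side of the threshold, 65 fell short of it, 84 passed it newly and 21 turned direction.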
